A study of Drosophila melanogaster with 12 samples.

Results

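The wing imaginal disc, the larval precursor of the adult wing and its body wall, is divided into an anterior and a posterior compartment. In the posterior cells the homeobox genes *engrailed* (*en*) and *invected* (*inv*) are on and drive *hedgehog* (*hh*), whose secreted product crosses the compartment border. Anterior cells express *cubitus interruptus* (*ci*), the transcription factor of the pathway, and receive the signal through Patched (*ptc*) and Smoothened (*smo*). Near the border the signal switches on *decapentaplegic* (*dpp*), and the Dpp gradient in turn activates the zinc finger genes *spalt major* (*salm*) and *spalt-related* (*salr*) and the T-box gene *bifid* (*bi*, also *optomotor-blind*) in the wing pouch. The proteins ASH2 and ASH1 belong to the trithorax group, which keeps developmental genes active once they have been switched on. Members of this group are known to maintain *en*. For *ash2* the study cites a report of no apparent En loss in whole discs of other alleles. In *ash2* mutant clones it found En/Inv protein reduced. These 9 genes were taken by symbol from the 12058 genes with a probe on the array, and all 9 had 1 probe each.

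RNA from wing discs of larvae in the third instar was compared on 12 dual-channel arrays with 1 common reference pool. The mutant larvae were w1118;+;ash2I1 (ash2-I1), w1118;+;ash2112411 (ash2-112411) and w1118;+;ash122/ash122F2A (ash1-22), and the pool came from the isogenic w1118;+;+ line. All carried w1118, were raised on food with bromophenol blue and were staged by it. The RNA of an allele was extracted 2 times independently, and either extract went onto 2 arrays, once in Cy3 and once in Cy5. By the study's account ash2-I1 larvae die in late larval or early pupal stages and have small, misshapen discs, ash2-112411 is the weaker *ash2* allele with a few adult escapers, and ash1-22 is a null allele that is lethal in the same stages as ash2-I1. By its methods the X, Y and second chromosomes of the mutants were replaced with those of the isogenic line, which leaves the third and the fourth. Of the 9 genes, *hh* lies on the third chromosome and *ci* on the fourth, and the part of that background in their ratios was not tested. Whole discs mix many cell types, so fewer cells of a type and less RNA per cell cannot be told apart.

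All values below are log2 ratios of mutant over pool, so that a negative value means less RNA in the mutant. A gene is said to have fallen or risen when its adjusted p was under 0.05 in limma's moderated test over all genes measured in the allele and its fold change was over 1.5 (0.58 on the log2 scale). Errors are standard errors (SE) with n = 2 extractions per allele. The pool is 1 sample common to the 3 alleles, and no SE covers its error. The *ash2* probe stood at −2.21 and −2.0 in extraction 1 and at −1.60 and −1.21 in extraction 2 of ash2-I1, at −2.07, −1.47 and −1.48 on the 3 arrays that measured it in ash2-112411, and at 0.19 and 0.34 on the 2 that did in ash1-22. No probe was matched to *ash1* here. The spots measured per array numbered 7542 to 8007 in ash2-I1, 10441 to 11179 in ash2-112411 and 5804 to 10747 in ash1-22. The ratios hold no level, so the tissue label was checked only by which markers gave a value in both extractions. Of 10 markers of the wing pouch, hinge and notum, 8 had a probe. Of these, ash2-I1 arrays measured 6, ash2-112411 arrays 7 and ash1-22 arrays 8, with log2 ratios of −1.10 to 0.05, −0.81 to 0.03 and −0.86 to 0.07. Those that fell were *vg* of the pouch in both *ash2* alleles (−1.10 and −0.81), *zfh2* of the hinge in ash2-I1 (−0.82) and *eyg* of the notum in ash1-22 (−0.86). The pouch markers *nub* (−0.22 in ash2-I1 and −0.21 in ash2-112411) and *rn* (−0.08 in ash2-112411) did not pass. Neither did *tup* (−0.10) and *pnr* (−0.07) of the notum in ash1-22. Under 1.5-fold but at an adjusted p under 0.05 were *tsh* of the hinge in ash2-I1 (−0.40, adjusted p = 0.0099), *eyg* in ash2-112411 (−0.38, adjusted p = 0.011) and *zfh2* in ash1-22 (−0.40, adjusted p = 0.028). Of 23 markers of muscle precursors, trachea, hemocytes, fat body, leg and haltere and the nervous system, 19 had a probe. Of these, 8, 12 and 14 were measured in the same order of alleles, with log2 ratios of −1.76 to 0.23, −1.44 to 0.64 and −0.67 to 1.92. Those called were *elav* (−1.0) in ash2-I1, *Dll* (−1.44) and *btl* (0.64) in ash2-112411, and *Dll* (−0.67) in ash1-22. *Dll* was listed here for leg and haltere, but the study counts it among genes of the wing-hinge part of the wing disc itself. At an adjusted p under 0.05 but under 1.5-fold were *uif* (−0.23) in ash2-I1 and *twi* (−0.33) in ash1-22. In ash2-112411 these were *twi* (−0.35), *elav* (0.48) and *repo* (0.29). The part of both marker lists in the results below was not tested.

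*en*, *inv* and *ci* fell in ash2-I1 discs, *en*, *hh* and *ci* fell in ash2-112411 discs, and none of the 9 passed both thresholds in ash1-22 discs. The single gene that rose was *salm*, in ash2-112411. In ash2-I1 discs, 3 of the 7 genes measured fell, beside 6.74% of all genes measured in that allele, and 0 rose (5.44% of all genes). On p alone, without regard to fold, 5 of the 7 were lower at an adjusted p under 0.05 and 0 higher (19.9% and 17.9% of all genes), and 6 were lower at an unadjusted p under 0.05 (23.7%). In ash2-112411 discs, 3 of 8 fell, beside 8.63% of all genes, and 1 rose, beside 8.35%. On adjusted p alone 4 of the 8 were lower (26.4% of all genes) and 1 was higher (24.0%). In ash1-22 discs, 0 of 9 fell and 0 rose, beside 1.18% and 1.8% of all genes. On adjusted p alone 2 of the 9 were lower (6.54% of all genes) and 0 higher (4.87%), and 6 were lower at an unadjusted p under 0.05 (16.7%). A ratio below 0 was found for 7 of 7 genes in ash2-I1 (45.9% of all genes), for 7 of 8 in ash2-112411 (50.2%) and for 8 of 9 in ash1-22 (48.4%). In ash2-I1 the median of the genes was −0.49 and that of all genes 0.02. The medians were −0.32 and 0.00 in ash2-112411, and −0.27 and 0.01 in ash1-22.

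**Figure D1:**
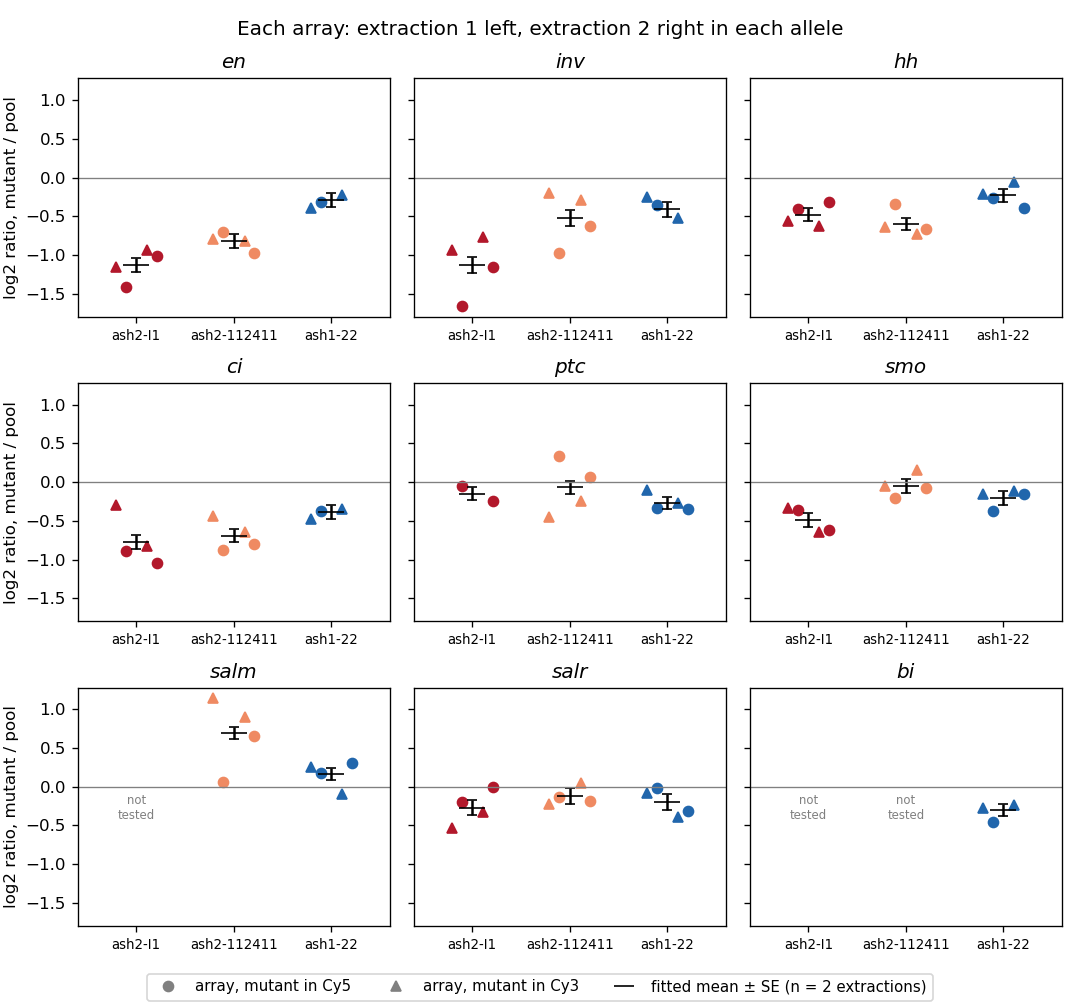
Log2 ratio of mutant over pool on every array, 1 panel per gene, with the alleles on the horizontal axis, circles for arrays with the mutant in Cy5, triangles for arrays with the mutant in Cy3, and black bars for the fitted mean ± SE (n = 2 extractions). The *en* points of ash2-I1 and ash2-112411 lie between −1.42 and −0.71 and those of ash1-22 between −0.39 and −0.23, while the *salm* points of ash2-112411 spread from 0.06 to 1.14.

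*en*, the selector of posterior identity, was below the pool on all 11 arrays that measured it. In ash2-I1 discs its log2 ratio was −1.15 and −1.42 on the arrays of extraction 1 and −1.01 and −0.94 on those of extraction 2. The ash2-112411 values were −0.71 and −0.79 in extraction 1 and −0.97 and −0.82 in extraction 2. The ash1-22 values were −0.39 and −0.32 in extraction 1 and −0.23 on the single array of extraction 2. The highest *ash2* array thus stood lower than the lowest ash1-22 array, and the ash2-I1 and ash2-112411 arrays overlapped only between −0.97 and −0.94. *en* fell 2.19-fold in ash2-I1 (−1.13 ± 0.09, adjusted p = 0.00015) and 1.77-fold in ash2-112411 (−0.82 ± 0.09, adjusted p = 0.00049), and its ratio in ash1-22 was −0.29 ± 0.09 (adjusted p = 0.089). Counted from the lowest ratio, its rank was 112 among 6874 genes in ash2-I1, 316 among 9686 in ash2-112411 and 708 among 8108 in ash1-22. Both *ash2* calls held under all 19 alternatives tried, though some of these could not end a call.

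*inv* encodes a homeodomain protein close to Engrailed and is the directly neighbouring coding gene of *en* in the annotation. In ash2-I1 discs its log2 ratio was −0.94 and −1.66 in extraction 1 and −1.15 and −0.77 in extraction 2. In ash2-112411 discs it was −0.97 and −0.20 in extraction 1 and −0.63 and −0.29 in extraction 2. In ash1-22 discs it was −0.25 and −0.36 in extraction 1 and −0.52 on 1 array of extraction 2. The arrays of ash2-112411 thus ran from near the pool to the range of ash2-I1, and in both *ash2* alleles the lower pair was the one with the mutant in Cy5. *inv* fell 2.19-fold in ash2-I1 (−1.13 ± 0.10, adjusted p = 0.00021), the same fitted ratio as *en*. It was lower without reaching 1.5-fold in ash2-112411 (−0.52 ± 0.10, adjusted p = 0.0043) and in ash1-22 (−0.41 ± 0.10, adjusted p = 0.042). The ash2-I1 call held under all 19 alternatives, while the adjusted p in ash1-22 ran from 0.0029 to 0.40 over its 17.

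*hh*, the ligand gene of the posterior cells, was below the pool on all 12 arrays. In ash2-I1 discs its log2 ratio was −0.56 and −0.41 in extraction 1 and −0.32 and −0.62 in extraction 2. The ash2-112411 values were −0.34 and −0.64 in extraction 1 and −0.67 and −0.73 in extraction 2. The ash1-22 values were −0.21 and −0.26 in extraction 1 and −0.06 and −0.39 in extraction 2. The 3 alleles overlapped, with the ash1-22 arrays nearest to the pool. *hh* fell 1.51-fold in ash2-112411 (−0.60 ± 0.08, adjusted p = 0.00074), just over the fold threshold. In ash2-I1 it was 1.39-fold lower (−0.48 ± 0.08, adjusted p = 0.0025), and in ash1-22 its ratio was −0.23 ± 0.08 (adjusted p = 0.094). The ash2-112411 value went under 1.5-fold without replicate 2 of that allele (−0.49), when each array was centred on its median (−0.57), on a common scale for all arrays (−0.45) and with only the arrays that had the mutant in Cy5 (−0.50).

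*ci*, the transcription factor gene of the anterior cells, was below the pool on all 11 arrays that measured it. In ash2-I1 discs its log2 ratio was −0.30 and −0.89 in extraction 1 and −1.04 and −0.83 in extraction 2. In ash2-112411 discs it was −0.88 and −0.44 in extraction 1 and −0.80 and −0.65 in extraction 2. In ash1-22 discs it was −0.48 and −0.37 in extraction 1 and −0.35 on 1 array of extraction 2. A single ash2-I1 array, at −0.30, was nearer to the pool than any ash1-22 array. *ci* fell 1.70-fold in ash2-I1 (−0.77 ± 0.09, adjusted p = 0.00074) and 1.62-fold in ash2-112411 (−0.69 ± 0.09, adjusted p = 0.00088). In ash1-22 it was 1.31-fold lower (−0.39 ± 0.09, adjusted p = 0.040, with 0.0024 to 0.39 over its 17 alternatives). Both falls went under 1.5-fold with only the arrays that had the mutant in Cy3 (−0.57 in ash2-I1 and −0.55 in ash2-112411), and the ash2-112411 fall also did on a common scale (−0.54). Genes of both compartments, *en*, *inv* and *hh* of the posterior and *ci* of the anterior cells, had ratios below 0 in every allele.

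*ptc* encodes the Hedgehog receptor and is itself a target of the pathway next to the border. In ash2-I1 discs it was measured only on the arrays with the mutant in Cy5, at −0.05 and −0.24, so a dye effect is not cancelled there. In ash2-112411 discs its log2 ratio was 0.34 and −0.45 in extraction 1 and 0.06 and −0.24 in extraction 2. The ash1-22 values were −0.10 and −0.33 in extraction 1 and −0.27 and −0.35 in extraction 2. The ash2-112411 arrays lay on either side of the pool, above it with the mutant in Cy5 and below it with the mutant in Cy3. No allele passed the test in the main fit, with −0.15 ± 0.08 in ash2-I1 (95% interval −0.32 to 0.03, adjusted p = 0.18), −0.07 ± 0.08 in ash2-112411 (−0.25 to 0.11, adjusted p = 0.46) and −0.27 ± 0.08 in ash1-22 (−0.44 to −0.09, adjusted p = 0.066). Over the alternatives the adjusted p in ash2-112411 went down to 0.011. In ash1-22 it was 0.014 with each allele fitted alone, at the same ratio. In ash2-112411 and ash1-22, where both dye orientations were measured, the intervals did not reach a fall of 1.5-fold.

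*smo* encodes the membrane protein that passes the signal into the cell once Patched has bound Hedgehog. In ash2-I1 discs its log2 ratio was −0.34 and −0.36 in extraction 1 and −0.62 and −0.64 in extraction 2, so the dye pairs agreed and the extractions differed. The ash2-112411 values were −0.21 and −0.05 in extraction 1 and −0.08 and 0.15 in extraction 2. In ash1-22 discs it was −0.15 and −0.37 in extraction 1 and −0.11 and −0.16 in extraction 2. All ash2-I1 arrays were below all ash2-112411 arrays, and the ash1-22 arrays lay among both. The ratio was 1.41-fold lower in ash2-I1 (−0.49 ± 0.09, adjusted p = 0.0051), −0.05 ± 0.09 in ash2-112411 (adjusted p = 0.71) and −0.20 ± 0.09 in ash1-22 (adjusted p = 0.19). Without replicate 1 of ash2-I1 its ratio there passed both thresholds (−0.63, adjusted p = 0.011), and without replicate 2 it passed neither (−0.35, adjusted p = 0.053).

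*salm* and *salr* are adjacent paralogs that the Dpp gradient activates in the central wing pouch, and *salm* was the one above the pool. *salm* had no value on any ash2-I1 array. In ash2-112411 discs its log2 ratio was 0.06 and 1.14 in extraction 1 and 0.65 and 0.90 in extraction 2. The ash1-22 values were 0.25 and 0.18 in extraction 1 and −0.09 and 0.30 in extraction 2. All 4 ash2-112411 arrays were above the pool, with a wide gap between the dye orientations of extraction 1. *salm* rose 1.61-fold in ash2-112411 (0.69 ± 0.08, adjusted p = 0.00089), and in ash1-22 its ratio was 0.16 ± 0.08 (adjusted p = 0.23). The rise was not called with only the arrays that had the mutant in Cy5 (0.36, adjusted p = 0.098) or on a common scale for all arrays (0.51).

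*salr* did not pass the test in any of the 3 alleles. In ash2-I1 discs its log2 ratio was −0.54 and −0.20 in extraction 1 and 0.00 and −0.33 in extraction 2. In ash2-112411 discs it was −0.14 and −0.22 in extraction 1 and −0.18 and 0.05 in extraction 2. In ash1-22 discs it was −0.08 and −0.02 in extraction 1 and −0.39 and −0.32 in extraction 2. The alleles overlapped, and no array was more than 0.05 above the pool. The fitted ratio was −0.27 ± 0.10 in ash2-I1 (95% interval −0.49 to −0.04, adjusted p = 0.063), −0.12 ± 0.10 in ash2-112411 (adjusted p = 0.32) and −0.20 ± 0.10 in ash1-22 (adjusted p = 0.20). In ash2-112411 the 95% interval of *salm* (0.50 to 0.88) and that of *salr* (−0.35 to 0.10) did not overlap, and the difference between the genes was not tested.

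*bi*, which the Dpp gradient activates in a wider band of the pouch than the *spalt* genes, had values in ash1-22 only. Its log2 ratio there was −0.27 and −0.46 in extraction 1 and −0.24 on 1 array of extraction 2. All 3 arrays were below the pool. The fitted ratio of −0.30 ± 0.08 did not pass the test in the main fit (95% interval −0.50 to −0.10, adjusted p = 0.075). At the same ratio its adjusted p was 0.0087 with each allele fitted alone.

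**Figure D2:**
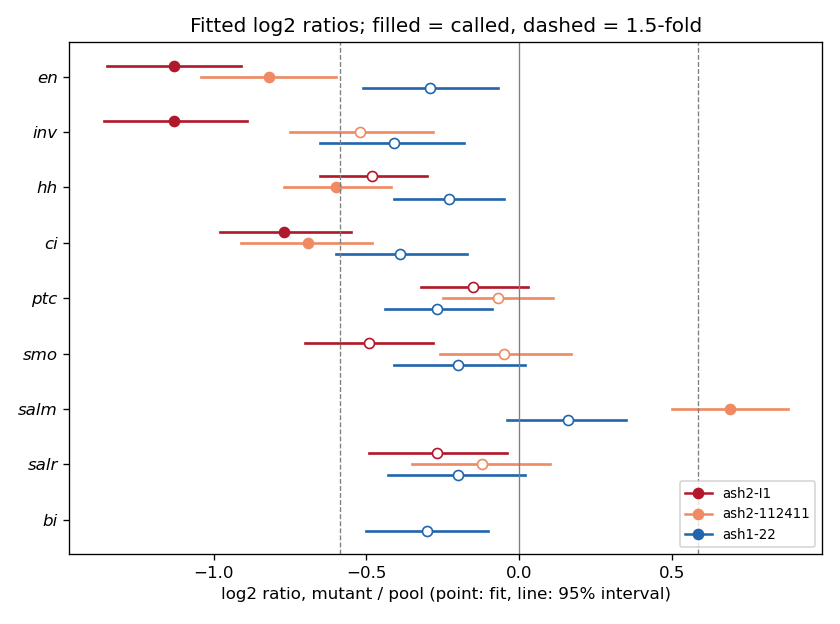
Fitted log2 ratio of mutant over pool for each gene and allele, with the 95% interval as a line, filled points for genes that passed both thresholds and dashed lines at 1.5-fold. The intervals of *en* lie below 0 in all 3 alleles, those of *ptc* reach no further than −0.44, and only *salm* in ash2-112411 is filled to the right of 0.

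The alleles were then compared with each other, in contrasts in which the pool cancels and which were called on adjusted p alone. In the contrast of ash2-I1 with ash2-112411, 2 of 7 genes (28.6%) differed, beside 32.1% of all genes, a share near the background. *inv* was lower in ash2-I1 than in ash2-112411 by a log2 difference of −0.61 ± 0.14 (adjusted p = 0.018), and so was *smo* (−0.45 ± 0.13, adjusted p = 0.037). *en* did not pass between the *ash2* alleles (−0.31 ± 0.13, adjusted p = 0.11), but it did on a common scale (−0.49, adjusted p = 0.035), with the extraction as a random block (adjusted p = 0.022) and without replicate 2 of ash2-I1 (−0.46, adjusted p = 0.037). *ci* (−0.07, 95% interval −0.38 to 0.23) and *hh* (0.12, −0.13 to 0.37) did not pass either. The difference of *inv* was lost in 4 of 17 alternatives, among them without replicate 1 of ash2-I1 (−0.44) and without replicate 2 of ash2-112411 (−0.55). That of *smo* was lost in 8 of 17, with any one replicate left out except replicate 1 of ash2-I1 (−0.53 to −0.30), on a common scale (−0.46), with the replicate block (−0.45) and with only the mutant in Cy5 (−0.35). In the contrast of ash2-I1 with ash1-22, 2 of 7 (28.6%) differed, beside 23.0% of all genes. These were *en* (−0.84 ± 0.13, adjusted p = 0.0052) and *inv* (−0.72 ± 0.14, adjusted p = 0.012), both lower in ash2-I1.

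In the contrast of ash2-112411 with ash1-22, 3 of 8 genes (37.5%) differed, beside 27.1% of all genes. *en* (−0.53 ± 0.13, adjusted p = 0.026) and *hh* (−0.37 ± 0.11, adjusted p = 0.042) were lower in ash2-112411, and *salm* (0.53 ± 0.11, adjusted p = 0.021) was higher. *ci* did not pass against ash1-22 in ash2-I1 (−0.38 ± 0.13, adjusted p = 0.074) or in ash2-112411 (−0.31 ± 0.13, adjusted p = 0.12). By the study's methods the ratios were scaled within each set of 4 arrays and not across alleles. In the deposited ratios the median absolute deviation per array still ran from 0.19 to 0.26 in ash2-I1. It ran from 0.27 to 0.31 in ash2-112411 and from 0.13 to 0.17 in ash1-22. Over the alternatives that could test them, *en* passed in 10 of 15, *hh* in 9 of 17 and *salm* in 10 of 17. The share of all genes that differed was counted in the main fit only. On a common scale none of the 8 genes differed between ash2-112411 and ash1-22, where *en* was at −0.22. The same count of 0 was found without replicate 2 of ash2-112411, where *en* was at −0.46, *hh* at −0.26 and *salm* at 0.44, and without either replicate of ash1-22. The difference of *en* between ash2-I1 and ash1-22 passed in all 15 alternatives that could test it. That of *inv* between the same alleles passed in 13 of 15, and not without replicate 1 of ash2-I1 (−0.55) or without replicate 1 of ash1-22 (−0.61).

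Where both dye orientations were measured, each ratio could be compared between them, which was not so for *ptc* in ash2-I1. *en* stood at −1.22 with the mutant in Cy5 and −1.05 with the mutant in Cy3 in ash2-I1, and at −0.84 and −0.80 in ash2-112411. These gaps were smaller than the median gap over all genes (0.22 for ash2-I1 and 0.27 for ash2-112411). *inv* stood at −1.40 in Cy5 and −0.85 in Cy3 in ash2-I1, and at −0.80 and −0.24 in ash2-112411. *salm* stood at 0.36 in Cy5 and 1.02 in Cy3 in ash2-112411, and *ptc* at 0.20 and −0.35. These gaps exceeded that median and lay within the 90th percentile over all genes (0.61 for ash2-I1 and 0.75 for ash2-112411). In extraction 2 of ash1-22 the values of *en*, *inv*, *ci* and *bi* rest on 1 array with the mutant in Cy3, the array with the fewest spots of the 12.

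**Figure D3:**
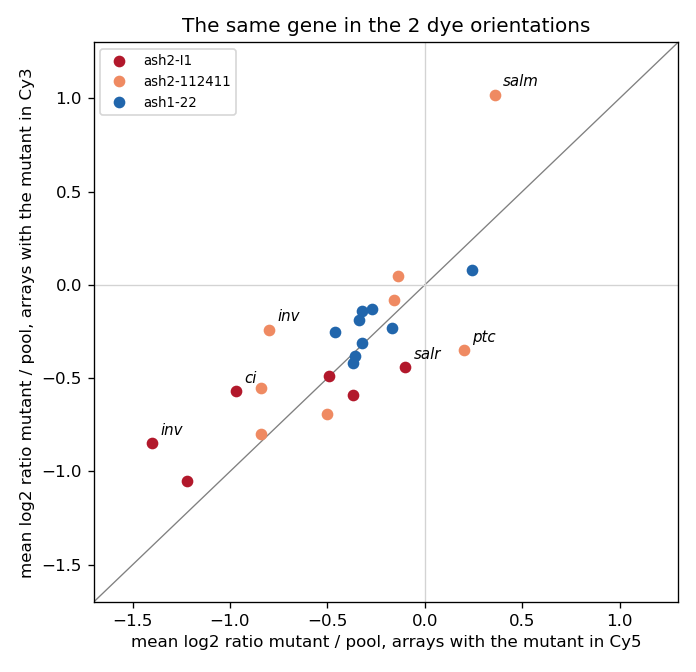
Mean log2 ratio of mutant over pool on the arrays with the mutant in Cy5 (horizontal axis) and with the mutant in Cy3 (vertical axis), 1 point per gene and allele, with the line of equality. Labelled points have a gap over 0.33, and of these only *ptc* in ash2-112411 lies on opposite sides of 0 (0.20 and −0.35).

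The rest of the pathway was followed through 42 other genes of Hedgehog release, reception and transduction and of the Dpp response and vein patterning downstream of it, of which 33 had a probe. In ash2-I1 discs, 8 of the 27 measured fell (6.74% of all genes), with a median log2 ratio of −0.36 beside 0.02 for all genes. In ash2-112411 discs, 7 of 29 fell (8.63% of all genes), with medians of −0.46 and 0.00. In ash1-22 discs, 1 of 28 fell (1.18% of all genes), with medians of −0.20 and 0.01, and 0 of the list rose in any allele. Without regard to fold, 16, 20 and 5 were lower at an adjusted p under 0.05 in the same order of alleles, beside 19.9%, 26.4% and 6.54% of all genes. Higher at that threshold were 3, 1 and 0, beside 17.9%, 24.0% and 4.87%. Those in ash2-I1 were *dlp* (0.56), *bs* of vein patterning (0.55) and *Dad* (0.37), and the 1 in ash2-112411 was *Dad* (0.41). The list was chosen with earlier results of these data known.

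Among genes for release and spread of the ligand, *rasp*, whose product attaches the palmitate that Hedgehog needs for activity, fell in ash2-I1 (−0.61 ± 0.11, adjusted p = 0.0042). Its arrays there were −0.86 and −0.93 with the mutant in Cy3 and −0.38 and −0.26 with the mutant in Cy5. Neither Cy5 array thus reached 1.5-fold. *shf*, which encodes a secreted protein that helps Hedgehog spread, also fell in ash2-I1 (−0.62 ± 0.15, adjusted p = 0.015), with −1.03 and −0.95 in extraction 1 and −0.48 and −0.02 in extraction 2. The extractions of *shf* thus did not overlap. *dlp*, a glypican gene, was higher in ash2-I1 at 0.56 ± 0.10 (adjusted p = 0.0047) and lower in ash2-112411 at −0.35 ± 0.10 (adjusted p = 0.024), both under 1.5-fold. On the receiving side *ihog*, the gene of a Hedgehog co-receptor, fell in ash2-I1 (−0.74 ± 0.09, adjusted p = 0.00081), and it was −0.46 ± 0.09 in ash2-112411 and −0.01 ± 0.09 in ash1-22. Its ash2-I1 arrays ran from −1.05 to −0.57, below the ash1-22 arrays at −0.20 to 0.14.

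Apart from *ci*, the genes that fell among those for signal transduction are known to act on the processing or turnover of the Ci protein. In ash2-112411 they were *slmb* (−0.68 ± 0.08, adjusted p = 0.00069), the gene of an F-box protein that recognises phosphorylated Ci, and *Cul1* (−0.62 ± 0.09, adjusted p = 0.0011), the gene of its cullin. The *slmb* arrays there were −0.07 and −0.69 with the mutant in Cy5 and −1.07 and −0.89 with the mutant in Cy3. Those of *Cul1* were −0.33 and −0.57 in Cy5 and −0.78 and −0.79 in Cy3. *CkIalpha*, one of the kinase genes, fell further in ash2-112411 (−1.32 ± 0.10, adjusted p = 0.00015), and its other probe stood at −0.54 there (adjusted p = 0.015). *Cul3*, the cullin gene of the complex that degrades full-length Ci, was at −1.05 ± 0.11 on its main probe and at 0.25 on the other (adjusted p = 0.27), so its fall depends on the probe. *rdx*, the gene of the adaptor of that complex, fell in ash2-I1 (−0.65 ± 0.07, adjusted p = 0.00035) and was −0.58 ± 0.07 in ash2-112411, where its 4 arrays lay between −0.60 and −0.54. On their main probes *slmb*, *Cul1*, *CkIalpha* and *Cul3* were also lower in the other alleles, at an adjusted p under 0.05 and under 1.5-fold. They stood at −0.36, −0.51, −0.51 and −0.36 in ash2-I1 and at −0.44, −0.36, −0.50 and −0.50 in ash1-22. The other probes of *CkIalpha* (−0.41 and −0.29) and *Cul3* (−0.17 in ash1-22) did not pass there.

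Among targets of Hedgehog along the border, *kn* (*knot*, a transcription factor gene of the central intervein) fell in ash2-112411 (−0.75 ± 0.07, adjusted p = 0.00048) and in ash1-22 (−0.68 ± 0.07, adjusted p = 0.0055). Its ash1-22 arrays were −0.46 and −0.82 in extraction 1 and −0.61 and −0.83 in extraction 2, and it was not measured in ash2-I1. Without either replicate of ash1-22, 0 genes of the list fell there. *ara*, an Iroquois gene of vein patterning, fell in ash2-I1 (−0.71 ± 0.09, adjusted p = 0.00079) and was −0.03 ± 0.09 in ash2-112411 and 0.12 ± 0.09 in ash1-22. Its ash2-I1 arrays were −1.15 and −0.94 with the mutant in Cy3 and −0.51 and −0.22 with the mutant in Cy5, so neither Cy5 array reached 1.5-fold. *dpp* itself was not measured in both extractions of any allele.

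In the Dpp branch *tkv*, the type I receptor gene, fell in ash2-I1 (−0.75 ± 0.13, adjusted p = 0.0039) and in ash2-112411 (−1.16 ± 0.13, adjusted p = 0.00050), and was −0.37 ± 0.13 in ash1-22. *vg*, the wing selector gene, fell in ash2-I1 (−1.10 ± 0.06, adjusted p = 6.5e-05) and in ash2-112411 (−0.81 ± 0.06, adjusted p = 0.00017), with its arrays at −1.23 to −0.92 and −0.98 to −0.66. In ash1-22 it was −0.25 ± 0.06 (adjusted p = 0.051). *magu*, the gene of a secreted modulator of the Dpp gradient, fell in ash2-I1 on its main probe, measured on 3 arrays (−0.65 ± 0.10, adjusted p = 0.0021). Its other probe had no value in ash2-I1. In ash2-112411 the main probe stood at 0.00 and the other was higher than the pool (0.49, adjusted p = 0.0021). *Dad*, the gene of an inhibitor that Dpp signalling induces, was higher than the pool at 0.37 ± 0.08 in ash2-I1 (adjusted p = 0.0094) and 0.41 ± 0.08 in ash2-112411 (adjusted p = 0.0049), under 1.5-fold in both. *salm* and *Dad* were thus above the pool in ash2-112411 where *tkv* and *vg* had fallen.

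**Figure D4:**
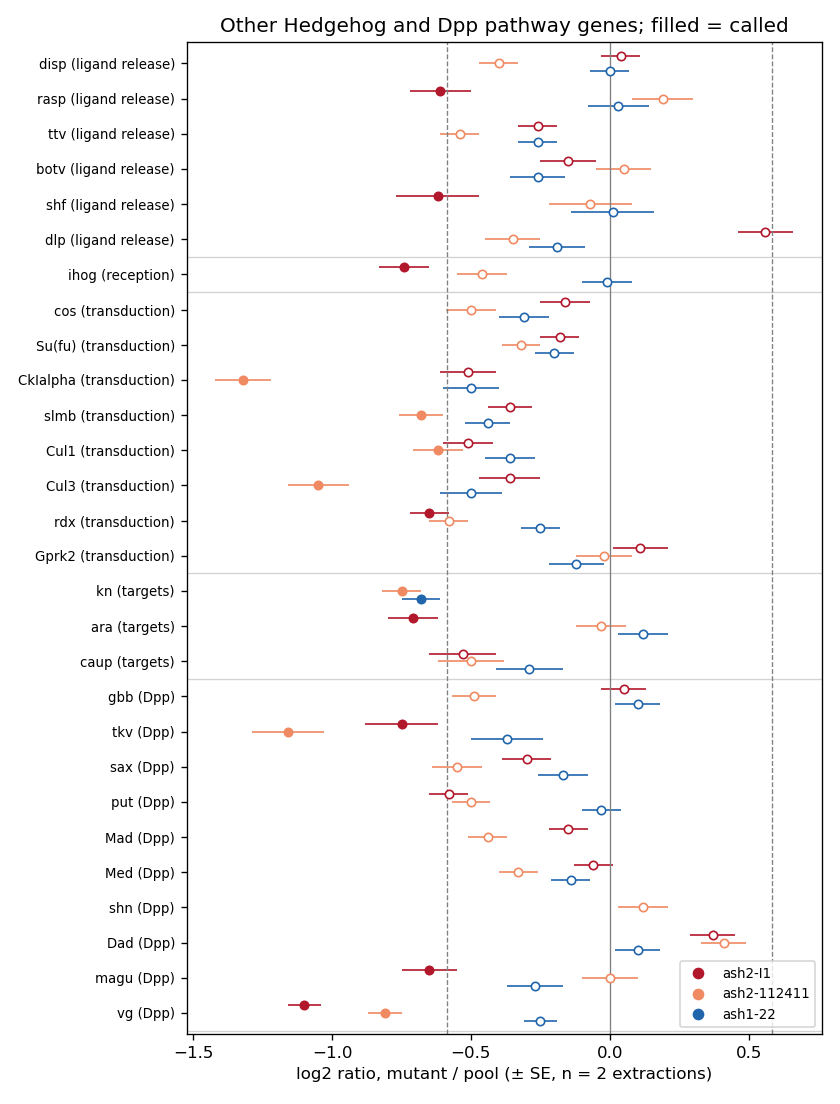
Log2 ratio of mutant over pool ± SE (n = 2 extractions) of the other measured Hedgehog and Dpp pathway genes, grouped by role from top to bottom, with filled points for genes that passed both thresholds and dashed lines at 1.5-fold. No point is filled to the right of 0, and the lowest are *CkIalpha* (−1.32) and *tkv* (−1.16) in ash2-112411 and *vg* (−1.10) in ash2-I1.

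Likeness to *en* and *ci* was measured as the Euclidean distance over the 6 extraction means, among 5422 genes with a value in all 6. The genes nearest to *en* were *MCU* at a distance of 0.222, *rdo* at 0.254 and *vg* at 0.287, and *inv* came at rank 58. *vg* had −1.10, −0.81 and −0.25 in ash2-I1, ash2-112411 and ash1-22, where *en* had −1.13, −0.82 and −0.29. The genes nearest to *ci* were *S* at 0.197, *east* at 0.199 and *crp* at 0.211, and *hh* came at rank 159. All these values share the pool, and *salm* was not measured in all 6 extractions.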

How the data were processed

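By the study's methods the authors read the scanned arrays in GenePix, discarded spots of low quality, subtracted background with normexp in limma, normalized each array with OLIN and brought the 4 arrays of an allele to a common median absolute deviation. The deposited table used here holds the log2 ratio, Cy5 over Cy3. Intensities and background were not analysed here. Their sign was turned where the dye labels put the mutant in Cy3, and the lower *ash2* ratio in both *ash2* alleles goes with that direction. Of 16416 spots, 14258 had a value, and 13164 probes carried 1 gene symbol in the platform annotation given. Those with several symbols (101) and those not listed (3151) were left out. Symbols were updated for 105 probes. A gene took its probe with most arrays.

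Dye-swapped arrays were averaged to 6 extraction means, to which limma 3.58.1 (R 4.3.3) fitted 1 mean per allele against 0 with a shared spread. A test needed at least 1 array from either extraction, and the Benjamini-Hochberg adjustment ran over all probes of an allele. The methods call the extractions independent. The number of arrays limits the precision. The fit was tested on simulated data. Alternatives changed the replicate unit, dye term, block, scale, centring, fold threshold, filters and libraries, or fitted each allele alone. The 9 genes and all lists were chosen with earlier results of these data known. Named are the 9, *ash2* and *ash1*, every list gene called and the 3 genes nearest to *en* and to *ci* (*salm* lacked values for this). *dlp*, *Dad*, *bs* and the markers under 1.5-fold were added after their values were seen.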

Additional observations from a re-analysis of the deposited data

Results flagged for a closer look

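In 7 cases the ratio of a gene differed between 2 alleles by the contrast of the limma fit at an adjusted p under 0.05. Lower in ash2-I1 than in ash2-112411 were *inv* (−0.61, adjusted p = 0.018) and *smo* (−0.45, adjusted p = 0.037). Lower in ash2-I1 than in ash1-22 were *en* (−0.84, adjusted p = 0.0052) and *inv* (−0.72, adjusted p = 0.012). In ash2-112411 *en* (−0.53, adjusted p = 0.026) and *hh* (−0.37, adjusted p = 0.042) were lower, and *salm* (0.53, adjusted p = 0.021) was higher, than in ash1-22. Of all genes, 32.1%, 23.0% and 27.1% differed in these 3 pairs. In the 19 combinations of gene and allele with 4 arrays, no array's gap to the others exceeded Dixon's 95% value.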

How the results depend on the processing

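The falls of *en* in both *ash2* alleles and of *inv* in ash2-I1 were called under all 19 alternatives. Not all of these could end a call. Dropping the fold threshold only relaxes the rule, and averaging the probes of a gene changes no ratio where there is 1 probe. Leaving out a replicate of another allele does not change the ratio either. *salr* was not called in any allele under any alternative. With the extraction as a random block its adjusted p in ash2-I1 was 0.0078, at −0.27 and thus under 1.5-fold. Where values moved, the cause was not tested. The numbers of the 9 genes, of the other pathway genes and of all genes that fell or rose are given below as such. For differences between alleles, the share of all genes was not counted in the alternatives.

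Without a fold threshold 5 of the 9 genes fell in ash2-I1 and 2 in ash1-22. Of the other pathway genes 16, 20 and 5 fell in ash2-I1, ash2-112411 and ash1-22, and 3 rose in ash2-I1 and 1 in ash2-112411. Of all genes 1366, 2555 and 530 fell and 1233, 2328 and 395 rose. On a common scale for all arrays 1 of the 9 genes fell and 0 rose in ash2-112411, 0 differed between ash2-112411 and ash1-22, and 4 other pathway genes fell in ash1-22. Of all genes 395 fell and 463 rose in ash2-112411, and 330 fell and 317 rose in ash1-22. Differences that changed sign there were those of *ci* (0.00) and *inv* (0.15) between ash2-112411 and ash1-22, of *hh* between ash2-I1 and ash2-112411 (−0.04) and of *salr* between ash2-I1 and ash1-22 (0.02). With the 4 arrays as replicates, with a dye term or with the extraction as a random block, 1 other pathway gene rose in ash2-I1. With the arrays as replicates 1 gene differed between ash2-I1 and ash2-112411, and with the random block 4 differed between ash2-I1 and ash1-22. With probes measured on all 4 arrays 231 genes rose in ash2-I1 and 0 of the 9 differed between ash2-I1 and ash1-22, since *en* and *inv* were not tested there.

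The extraction numbers do not pair the libraries, since the deviations of same-numbered extractions correlated at 0.0907, −0.0459 and −0.134. With the replicate number as a block 1 gene differed between ash2-I1 and ash2-112411, where *smo* had an adjusted p of 0.054, and *hh* between ash2-112411 and ash1-22 had one of 0.059. The block ended no other call of the 9 genes.

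These 3 alternatives were chosen after seeing the data. Without the ash1-22 array with the fewest spots, 1 gene differed between ash2-112411 and ash1-22. With only the arrays that had the mutant in Cy5, 0 of the 9 genes rose in ash2-112411, 0, 0 and 1 differed in the pairs ash2-I1 and ash2-112411, ash2-I1 and ash1-22, and ash2-112411 and ash1-22, 1 other pathway gene rose in each *ash2* allele, and 54 genes rose in ash1-22. In that setting *en* and *inv* could not be tested in ash1-22, and the 1 gene that differed was *ptc* (0.55, adjusted p = 0.031). *ptc* in ash2-112411 (0.20) and *salr* between ash2-I1 and ash1-22 (0.07) or ash2-112411 (0.06) changed sign. With the mutant in Cy3 the sign changed for *inv* (0.14) and *ptc* (−0.16) between ash2-112411 and ash1-22 and for *smo* in ash2-112411 (0.05).

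With each replicate left out in turn, 3 to 4 of the 9 genes fell in ash2-I1, 2 to 3 in ash2-112411 and 0 in ash1-22, and 1 rose in ash2-112411 each time. Between 0 and 2, 1 and 2, and 0 and 4 differed in the pairs ash2-I1 and ash2-112411, ash2-I1 and ash1-22, and ash2-112411 and ash1-22. Of the other pathway genes 6 to 8, 5 to 11 and 0 to 1 fell in ash2-I1, ash2-112411 and ash1-22, and 0 to 2 rose in ash2-I1. Of all genes 462 to 567, 747 to 1029 and 21 to 101 fell and 329 to 565, 729 to 1020 and 18 to 149 rose. The lowest counts in ash1-22 (21 and 18) came without its replicate 1. Ranges that took in a change of sign were −0.22 to 0.09 for *salr* between ash2-I1 and ash1-22 (above 0 without replicate 1 of either allele, 0.04 and 0.09), −0.07 to 0.23 for *salr* between ash2-112411 and ash1-22, −0.24 to 0.10 for *ci* and −0.17 to 0.03 for *ptc* between the *ash2* alleles, and −0.13 to 0.04 for *smo* in ash2-112411. A lone extraction is assumed to vary like the others.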
